A study of Mus musculus with 7 samples.

Results

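Axon guidance ligands and receptors were examined in RNA-seq of mouse amygdala neurons in which the transcription factor gene Nr2f2 had been targeted. Members were the gene symbols of the slit, semaphorin, netrin and ephrin systems that match a fixed name pattern, 71 of the 35976 symbols in the count table. They comprise 3 slits and 4 Robo receptors (7 genes), 20 semaphorins and 11 plexins or neuropilins (31 genes), 6 netrins or netrin-Gs and 5 Dcc or Unc5 receptors (11 genes), and 8 ephrins and 14 Eph receptors (22 genes). Of the 71, 67 passed edgeR's filter on low counts and were tested.

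The 3 libraries labelled sgNr2f2 came from male C57BL/6J mice whose amygdala received an adeno-associated virus (AAV) with a guide RNA against Nr2f2. The 4 control libraries, labelled sgRosa, came from male C57BL/6J mice given a guide against the Rosa locus, and in both groups the synapsin promoter hSyn drove Cas9. The labels give no age and do not say whether a library is 1 animal or a pool, so the spread behind each p-value may be technical. Mice of both groups were restrained in tubes on 7 days, then fear conditioned on 1 day and put through extinction on 3 days, so the groups share the stress. Neurons were then enriched from papain-digested tissue with a magnetic kit. The promoter is a neuronal one, while the libraries also held RNA of other cells.

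Guidance cues steer growing axons and migrating cells by attraction or repulsion, and in the adult brain many of them take part in synapse formation, spine remodelling, myelination and blood vessel maintenance. Slits are secreted repellents read by Robo receptors. Semaphorins signal through plexins, the secreted class with neuropilins as co-receptors. Netrin attracts through Dcc and repels through Unc5 receptors, and ephrins are membrane-bound ligands of the Eph receptor tyrosine kinases that signal in both directions. Nr2f2 (COUP-TFII) is a nuclear receptor that in the mouse embryo is known for its part in vein identity and for acting on neuropilin expression in cells that build the amygdala.

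The libraries held 6266897 to 20928677 counts. Genes with at least 1 count numbered 16364 to 17572 in sgNr2f2 and 18644 to 19916 in sgRosa, so the ranges did not overlap. The 12 neuron markers were all counted in every library, at a summed 458 to 591 CPM in sgNr2f2 and 444 to 1557 CPM in sgRosa. CPM stands for the count of a gene relative to its library's total, here on library sizes scaled by the TMM method. The 12 oligodendrocyte markers summed to 165890 to 408249 CPM in sgNr2f2 and 22964 to 346753 CPM in sgRosa, so these markers were far above those of the labelled cell type. The 8 endothelial markers summed to 3048 to 7303 CPM in sgNr2f2 and 2932 to 6821 CPM in sgRosa. sgRosa replicate 4 stood apart. It had the lowest total and 31591 CPM of erythroid transcripts, against 1049 to 3063 CPM in the other 6 libraries. Its neuron sum was the highest and its oligodendrocyte sum the lowest. The neuron markers did not move together there. Syt1, Nefl and Tubb3 were among those highest in it, at 558, 274 and 211 CPM. Snap25 and Gad1 were lowest in it, at 36.9 and 4.50 CPM. Nr2f2 itself lay at 11.8 ± 0.22 CPM in sgNr2f2 (SD, n = 3) and 15.2 ± 3.76 CPM in sgRosa (SD, n = 4), which did not pass (edgeR log2 fold change -0.36, adjusted p = 0.905), and a Cas9 edit need not lower a transcript count.

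No guidance gene passed edgeR's quasi-likelihood test after Benjamini-Hochberg adjustment over all 14412 genes kept. The counts were 0 members higher and 0 lower, where 0% of all genes were called in either direction, and the smallest adjusted p among members was 0.868. At an unadjusted p under 0.05, 6 members lay higher in sgNr2f2 (2.18% of all genes did) and 9 lay lower (2.82% of all genes). Each sgNr2f2 library lay above each sgRosa library for 4 members, Sema4c, Sema7a, Plxna2 and Epha2 (4.41% of all genes), and below each for 5 members, Slit2, Robo1, Robo2, Dcc and Plxnc1 (3.9% of all genes). Over 67 members the median log2 fold change was -0.35, with 26 above 0, against -0.11 over all genes, of which 43.8% were above 0. Direction differed by level. Of all genes with a mean of 1 to 20 CPM 62.8% lay lower, as did 76.9% of 39 members. From 20 to 200 CPM 55% of all genes lay higher, as did 66.7% of 24 members. The 5 lower members with no overlap were in the first band (4.85% of its genes). The 4 higher ones were in the second (7.3%). DESeq2 called 0 members too, where 0.00418% of all genes were called higher and 0.0251% lower by it. Its unadjusted p was under 0.05 for 7 members that lay higher (1.7% of all genes) and 11 that lay lower (4.14%). These DESeq2 shares are over 23913 genes, not the 14412 of edgeR, so the 2 tools' shares are not directly comparable. Limma-voom called 0 members and 0% of all genes, and its unadjusted p was under 0.05 for 5 higher (2.41%) and 5 lower (2.12%) members.

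The same counts were made without sgRosa replicate 4. Without it, edgeR again called 0 members. Its unadjusted p was under 0.05 for 9 of 64 members that lay higher (6.41% of all genes) and 5 that lay lower (4.88%). Of the 64, 29 had a log2 fold change above 0 (47.5% of all genes). Groups did not overlap for 7 higher members (9.11% of all genes) and 5 lower members (8.95%). DESeq2 without this library, a fit chosen once the data had been seen, called 5 members higher (Sema4c, Plxna2, Epha2, Sema7a and Efnb1) and 0 lower, where 1.49% and 0.792% of all genes were called. At an unadjusted p under 0.05 it had 10 members higher (6.71%) and 6 lower (5.38%). These DESeq2 shares are over 15662 genes, and those of edgeR without this library over 14096. Limma-voom without sgRosa replicate 4 called 0 members, and its unadjusted p was under 0.05 for 8 higher (5.87%) and 4 lower (5.07%) members.

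**Figure D1:**
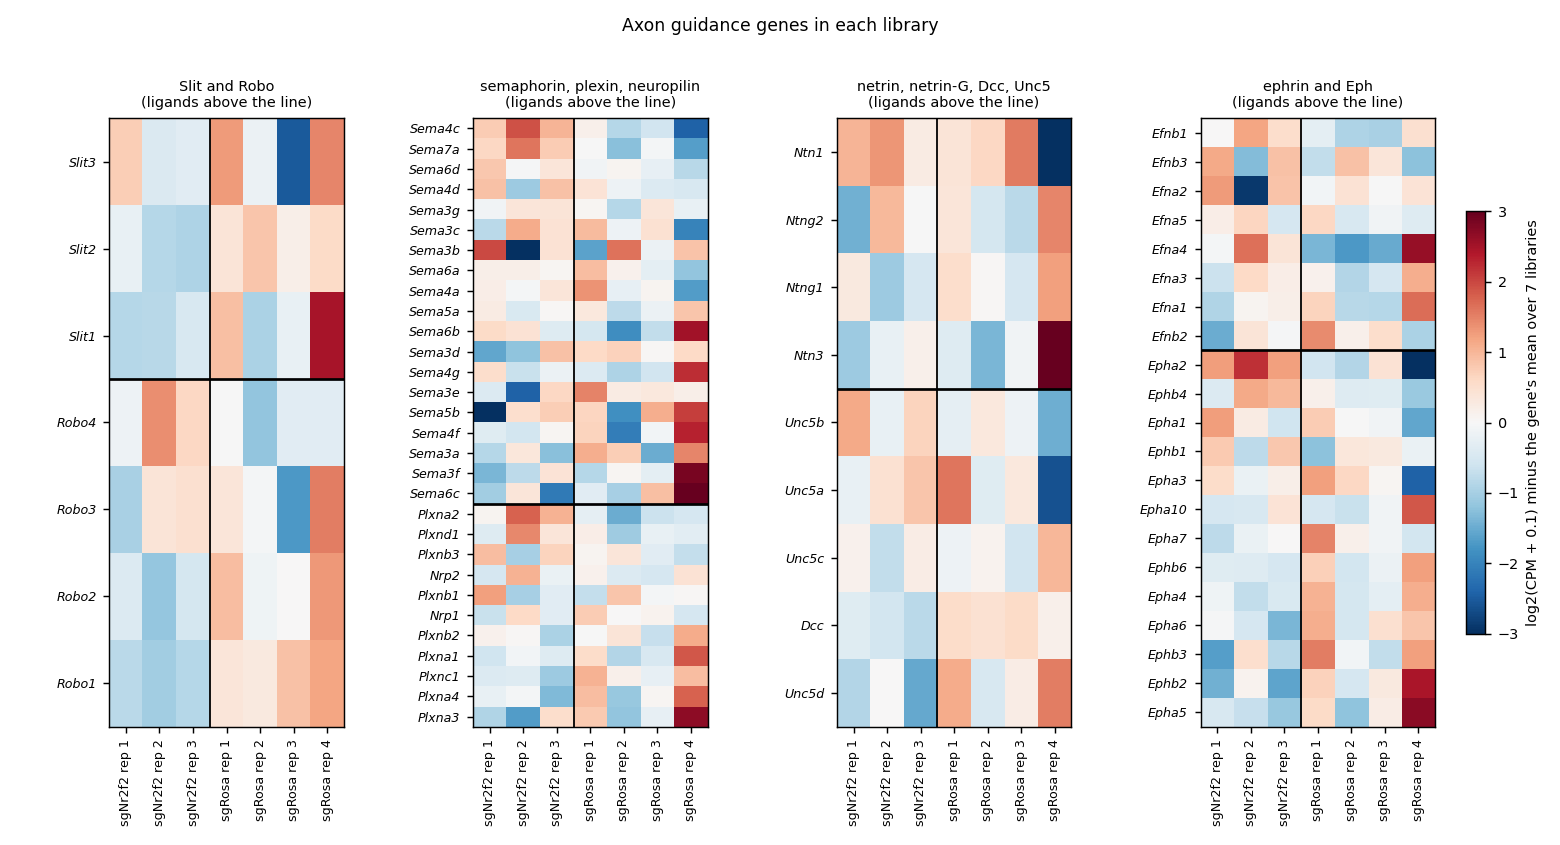
Level of the 67 tested guidance genes in each library, as log2(CPM + 0.1) minus the gene's mean over 7 libraries, with the 3 sgNr2f2 libraries left of the 4 sgRosa libraries, 1 panel per family and ligands above the black line. Red is above and blue below the gene's mean. sgRosa replicate 4 is the highest library for 30 members (44.8%, against 32.7% of all genes). The rows of Robo1, Slit2 and Dcc are blue in all sgNr2f2 libraries.

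Since the guide targets a transcription factor that binds repeats of AGGTCA, the 250 bases before the transcript starts of a RefSeq promoter table were searched for these letters. RefSeq promoters (GRCm38.p6, the assembly behind mm10) were found for 61 of the 71 members, 77 promoters in all. AGGTCA on either strand was in 11 of the 77 (14.3%), which is close to the 14.0% of all 32851 promoters. The direct repeat AGGTCANAGGTCA was in 0 of the 77 and in 11 of all promoters. A match is a run of letters and not a binding site, and the windows without one say nothing about the factor. Of the 6 members higher at an unadjusted p under 0.05, Robo4 and Epha2 were among those with a match. Sema4c, Sema7a, Plxna2 and Ephb4 were not, which for a gene can mean either no match or no promoter in the table. Matches were also found for Plxnd1, Sema4d, Sema5a, Plxnb2 and Sema6b, at log2 fold changes of 0.96, 0.59, -0.20, -0.53 and -0.60. The promoters below are those of the endothelial receptor Robo4 and of Epha2, which hold a match and belong to members with higher values in sgNr2f2, and of both neuropilins, of which Nrp1 holds a match and Nrp2 does not. All lie on the plus strand, Robo4 at chr9:37401722-37401971, Epha2 at chr4:141300971-141301220, Nrp1 at chr8:128358823-128359072 and Nrp2 at chr1:62703067-62703316. These windows belong to the starts in that table, which can differ from a gene's outermost start. The Nrp1 window lies inside the annotated gene, which begins at 128358591, and the Robo4 window runs past the gene's first base at 37401902. Capitals mark AGGTCA or its complement TGACCT.
Robo4: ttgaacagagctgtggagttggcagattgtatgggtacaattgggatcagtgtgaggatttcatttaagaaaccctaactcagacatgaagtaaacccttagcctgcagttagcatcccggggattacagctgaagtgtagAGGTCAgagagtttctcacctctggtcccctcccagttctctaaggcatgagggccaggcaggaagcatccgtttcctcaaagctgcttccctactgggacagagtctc
Epha2: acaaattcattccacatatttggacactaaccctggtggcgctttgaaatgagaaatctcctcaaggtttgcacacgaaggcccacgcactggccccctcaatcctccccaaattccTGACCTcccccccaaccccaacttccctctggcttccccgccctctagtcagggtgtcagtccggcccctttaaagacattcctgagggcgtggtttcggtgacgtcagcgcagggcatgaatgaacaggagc
Nrp1: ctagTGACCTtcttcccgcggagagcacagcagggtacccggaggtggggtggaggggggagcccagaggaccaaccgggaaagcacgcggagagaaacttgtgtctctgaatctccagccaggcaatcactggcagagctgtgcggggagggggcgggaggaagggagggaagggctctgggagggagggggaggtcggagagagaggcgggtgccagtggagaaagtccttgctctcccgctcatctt
Nrp2: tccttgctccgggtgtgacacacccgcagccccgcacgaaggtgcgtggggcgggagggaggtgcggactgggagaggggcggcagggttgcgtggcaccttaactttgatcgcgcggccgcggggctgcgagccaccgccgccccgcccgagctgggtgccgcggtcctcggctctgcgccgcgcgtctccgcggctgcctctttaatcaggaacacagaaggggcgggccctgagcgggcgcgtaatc
The match starts at base 142 of the Robo4 window, base 118 of the Epha2 window and base 5 of the Nrp1 window, counted from the 5′ end.

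Among slits and Robos, the neuronal receptors and the ligands lay lower in sgNr2f2 and the endothelial receptor lay higher. Of the 7 genes, 4 lay lower (2.82% of all genes) and 1 higher (2.18%) at an unadjusted p under 0.05, and 0 passed after adjustment. The median log2 fold change was -1.16 for the 3 ligands and -0.84 for the 4 receptors.

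Robo1 (chromosome 16, 72027518 to 73047491, mm10), a repulsive slit receptor, lay at 2.00, 1.68 and 1.94 CPM in sgNr2f2 replicates 1 to 3, against 4.64, 4.44, 6.67 and 8.31 CPM in sgRosa replicates 1 to 4. The groups did not overlap, and the lowest sgRosa library was above the highest sgNr2f2 library by more than the whole range of the sgNr2f2 libraries. Its log2 fold change was -1.67 (SE 0.49, 95% confidence interval -2.75 to -0.60, edgeR adjusted p = 0.868) and ran from -1.90 to -1.43 over 16 alternatives. Robo2 (chromosome 16, 73891976 to 75447443), which neighbours Robo1 and also repels, lay at 5.57, 3.25 and 5.08 CPM in sgNr2f2 and 14.2, 6.77, 7.55 and 18.5 CPM in sgRosa. The groups did not overlap, and sgRosa replicates 1 and 4 were well above replicates 2 and 3. The log2 fold change was -1.34 (SE 0.51), and -1.04 without sgRosa replicate 4.

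Slit2 (chromosome 5, 47981291 to 48307735), a secreted ligand of both receptors, lay at 6.36, 4.04 and 3.87 CPM in sgNr2f2 and 9.75, 13.3, 8.43 and 11.2 CPM in sgRosa. The groups did not overlap, and the log2 fold change was -1.16 (SE 0.43, edgeR adjusted p = 0.868) and -1.14 without sgRosa replicate 4. Slit1 lay at 4.97, 5.05 and 6.54 CPM in sgNr2f2 and 17.3, 4.66, 7.75 and 50.8 CPM in sgRosa. Here the groups overlapped, since sgRosa replicate 2 was the lowest of all libraries and replicate 4 the highest. The log2 fold change of Slit1 was -1.86 (SE 0.76), and -0.85 without that library. Slit3 and Robo3, a Robo that modifies slit responses of commissural axons, were scarce, at means of 0.932 and 0.488 CPM in sgNr2f2 and 1.42 and 0.652 CPM in sgRosa.

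Robo4, the Robo of blood vessel endothelium, went the other way. It lay at 82.6, 239 and 142 CPM in sgNr2f2 and 91.3, 40.1, 72.6 and 72.2 CPM in sgRosa, so the groups overlapped through sgNr2f2 replicate 1. The log2 fold change was 1.16 (SE 0.49, edgeR adjusted p = 0.868). Within each library, the count of Robo4 was 41.3, 142 and 73.1 times that of Robo1 in sgNr2f2 and 19.7, 9.02, 10.9 and 8.69 times in sgRosa. This ratio needs no scaling of libraries. Its groups did not overlap, and neither did those of Robo1 alone. The pair was picked with its values in view, and of all 2016 ratios between members counted in every library 15.1% had groups that did not overlap. Per kilobase of exon, the median level over 7 libraries was 15.6 CPM for Robo4, against 0.269 CPM for Robo1, 0.399 CPM for Robo2 and 0.332 CPM for Slit2.

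Neuron markers are given beside these genes. Their sum was 458 to 591 CPM in sgNr2f2 and 444 to 1557 CPM in sgRosa, and sgRosa replicate 2 had the lowest. In bulk RNA, fewer cells of a type and less RNA per cell cannot be told apart. With all libraries, 10 of the 12 neuron markers lay lower and 2 higher in sgNr2f2. The neuron count leaned in part on sgRosa replicate 4. Tubb3 stood at 211 CPM there, against 22.6 to 30.2 CPM in the other sgRosa libraries and a mean of 38.7 CPM in sgNr2f2. Without that library the sgRosa neuron sums ran from 444 to 771 CPM. Of 8 endothelial markers 5 lay higher and 3 lower in sgNr2f2. The part of cell makeup in these values was not tested.

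**Figure D2:**
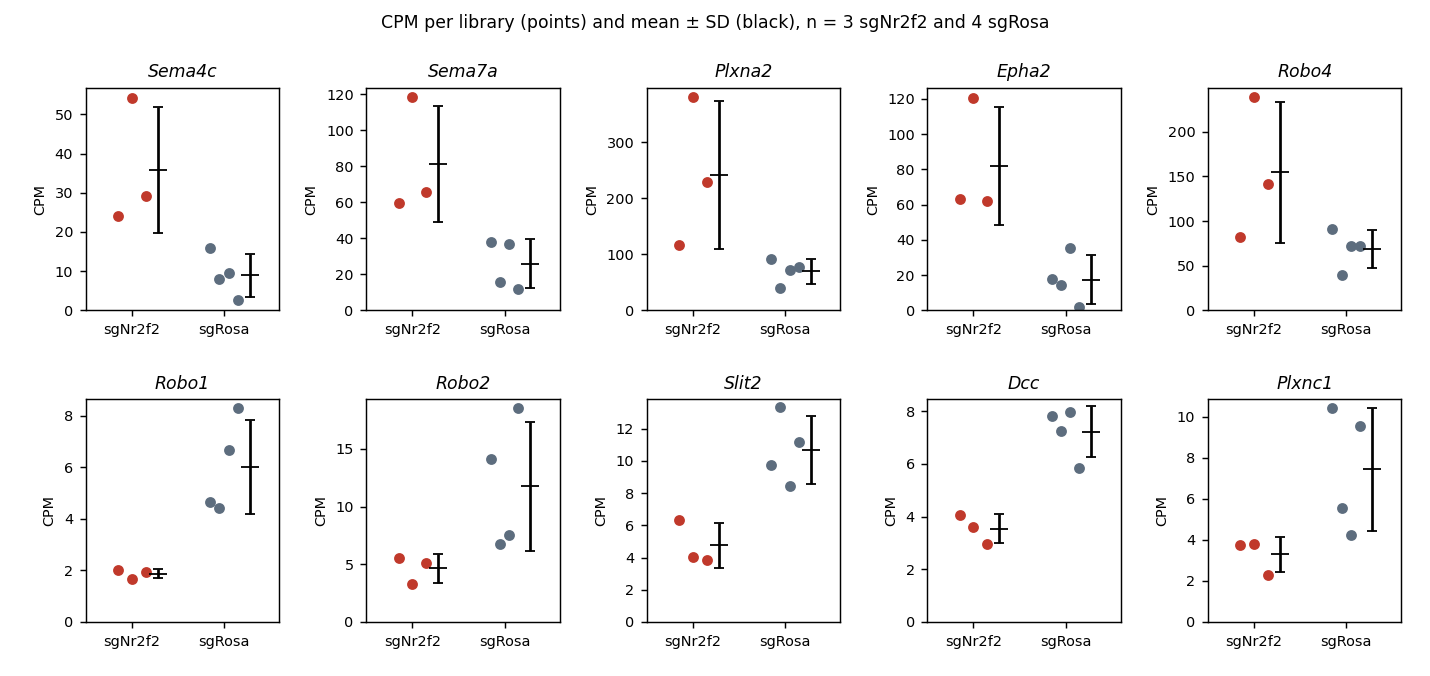
CPM in each library (points), with mean ± SD in black, for the 9 members whose groups did not overlap and for Robo4; sgNr2f2 (3 libraries) is left of sgRosa (4 libraries) and each axis starts at 0. Sema4c, Sema7a, Plxna2 and Epha2 are higher in every sgNr2f2 library, Robo1, Robo2, Slit2, Dcc and Plxnc1 are lower in every one, and Robo4 overlaps at 82.6 and 91.3 CPM.

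Semaphorins and their receptors were the largest family and split in direction. Of 19 tested semaphorins, 8 lay higher and 11 lower in sgNr2f2 (median log2 fold change -0.20), and of 11 receptors 5 lay higher and 6 lower (median -0.20). At an unadjusted p under 0.05, 3 genes of the family lay higher (2.18% of all genes) and 1 lower (2.82%), and 0 passed after adjustment.

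Sema4c (chromosome 1, 36548639 to 36560699), a transmembrane semaphorin that binds plexin-B2, had the smallest p of all members. It lay at 24.2, 54.2 and 29.2 CPM in sgNr2f2 and 15.8, 7.91, 9.52 and 2.59 CPM in sgRosa, and the groups did not overlap. Its log2 fold change was 1.99 (SE 0.57, 95% confidence interval 0.73 to 3.25, edgeR adjusted p = 0.868), and 1.69 without sgRosa replicate 4. Of its exon bases, 7.27% are shared with an annotated transcript, D430040D24Rik. Plxnb2, its receptor, lay at 7.22 ± 2.60 CPM in sgNr2f2 (n = 3) and 10.5 ± 5.52 CPM in sgRosa (n = 4).

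Sema7a (chromosome 9, 57939596 to 57962865), a membrane-anchored semaphorin that acts through integrins and plexin-C1, lay at 59.7, 118 and 65.5 CPM in sgNr2f2 and 38.1, 16.0, 36.8 and 12.1 CPM in sgRosa. Each sgNr2f2 library was higher, with a log2 fold change of 1.65 (SE 0.52, edgeR adjusted p = 0.868) that ran from 1.28 to 1.90 over 16 alternatives. Plxnc1, the plexin that binds it, lay lower in each sgNr2f2 library, at 3.76, 3.81 and 2.30 CPM, against 10.4, 5.58, 4.22 and 9.54 CPM in sgRosa. The gap between the groups was narrow, from 3.81 to 4.22 CPM, and the log2 fold change was -1.17 (SE 0.50, edgeR adjusted p = 0.868).

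Plxna2 (chromosome 1, 194619791 to 194816869), a receptor of Sema6a and, with neuropilins, of secreted semaphorins, had the highest mean level of all members in CPM. It lay at 117, 380 and 229 CPM in sgNr2f2 and 91.4, 39.2, 71.2 and 78.1 CPM in sgRosa. The groups did not overlap, sgNr2f2 replicate 2 was far above the rest, and the log2 fold change was 1.79 (SE 0.52, 95% confidence interval 0.64 to 2.94, edgeR adjusted p = 0.868). The other A plexins, Plxna1, Plxna3 and Plxna4, had lower means in sgNr2f2, at 7.31, 1.78 and 12.2 CPM, against 14.8, 5.73 and 28.2 CPM in sgRosa. Those sgRosa means rested in part on replicate 4, and were 8.43, 2.37 and 18.7 CPM without it.

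sgNr2f2 replicate 2 was also the library with the highest endothelial sum, 7303 CPM, and sgRosa replicate 1 came next with 6821 CPM. Between these 2 libraries, Plxna2 stood at 380 and 91.4 CPM, Sema4c at 54.2 and 15.8 CPM and Sema7a at 118 and 38.1 CPM. Nrp1, which endothelium also uses, stood at 107 CPM in sgNr2f2 replicate 2 and 120 CPM in sgRosa replicate 1. Of single endothelial markers, Cdh5 stood at 199 and 106 CPM in these libraries and Pecam1 at 424 and 295 CPM. Both differed where the sums were close, while Cldn5 stood at 518 and 466 CPM. The part of endothelial RNA in these values was not tested.

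The neuropilins, named for their known link to Nr2f2 and not by their values here, showed no difference beyond the spread. Nrp1 lay at 44.2, 107 and 55.3 CPM in sgNr2f2 and 120, 70.8, 75.5 and 49.3 CPM in sgRosa, with a log2 fold change of -0.20 (SE 0.48, 95% confidence interval -1.26 to 0.87). Nrp2 lay at 19.3, 56.4 and 23.7 CPM in sgNr2f2 and 29.7, 20.7, 19.4 and 37.2 CPM in sgRosa, with a log2 fold change of 0.31 (SE 0.47, 95% confidence interval -0.74 to 1.36). The groups overlapped for both, and the intervals leave room for a change of more than 1 log2 unit. Both directions turned in fits that left out 1 library, that of Nrp1 to 0.07 without sgRosa replicate 1 and that of Nrp2 to -0.31 without sgNr2f2 replicate 2.

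Of the secreted class, Sema3c was the most abundant, at 58.9, 222 and 140 CPM in sgNr2f2 and 197, 91.9, 142 and 25.6 CPM in sgRosa. Its groups overlapped broadly and its log2 fold change was 0.29 (SE 0.68), or -0.04 without sgRosa replicate 4. Sema3g followed at 27.4 ± 4.91 CPM in sgNr2f2 and 21.7 ± 7.21 CPM in sgRosa. Sema3a, Sema3d and Sema3e had lower means in sgNr2f2, 1.25, 2.47 and 3.83 CPM, against 3.03, 4.10 and 7.53 CPM in sgRosa, and none of the 3 passed. Sema3b and Sema3f stayed under 10 CPM in every library.

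Sema4d and Plxnb3, which oligodendrocytes carry, are given for that reason. Sema6a, also found in these cells, was highest in sgRosa replicate 1, at 69.8 CPM. Sema4d lay at 98.8, 25.1 and 99.1 CPM in sgNr2f2 and 70.9, 48.0, 40.3 and 38.2 CPM in sgRosa. Plxnb3 lay at 32.7, 8.46 and 27.1 CPM in sgNr2f2 and 17.9, 22.0, 13.5 and 10.4 CPM in sgRosa. Of the sgNr2f2 libraries, replicate 2 was the lowest for both and had the lowest oligodendrocyte sum (165890 CPM, against 326933 and 408249 CPM in replicates 1 and 3). In sgRosa, Sema4d was highest in replicate 1, where that sum was 97838 CPM. The part of oligodendrocyte RNA in these values was not tested. The transmembrane semaphorins Sema6a, a ligand of A plexins, and Sema6d lay at 40.6 ± 1.79 and 35.0 ± 10.1 CPM in sgNr2f2 and 39.1 ± 22.7 and 22.1 ± 5.57 CPM in sgRosa. Sema5a lay at 30.9 ± 7.25 CPM in sgNr2f2 and 35.6 ± 16.4 CPM in sgRosa. Sema6b lay at 22.1, 19.96 and 11.3 CPM in sgNr2f2, and in sgRosa it stood at 85.4 CPM in replicate 4 and at 4.01 to 10.3 CPM in the others. Its log2 fold change was -0.60 (SE 0.91), or 1.21 without that library. Sema4a, Sema4f, Sema4g, Sema5b and Sema6c had group means under 11 CPM, and Sema4b failed the filter with 59 counts in all. Among receptors, Plxnd1, the endothelial receptor of Sema3e, lay at 32.5 ± 20.9 CPM in sgNr2f2 and 16.7 ± 5.66 CPM in sgRosa, and Plxnb1 at 7.85 ± 6.49 CPM in sgNr2f2 and 7.03 ± 3.23 CPM in sgRosa.

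**Figure D3:**
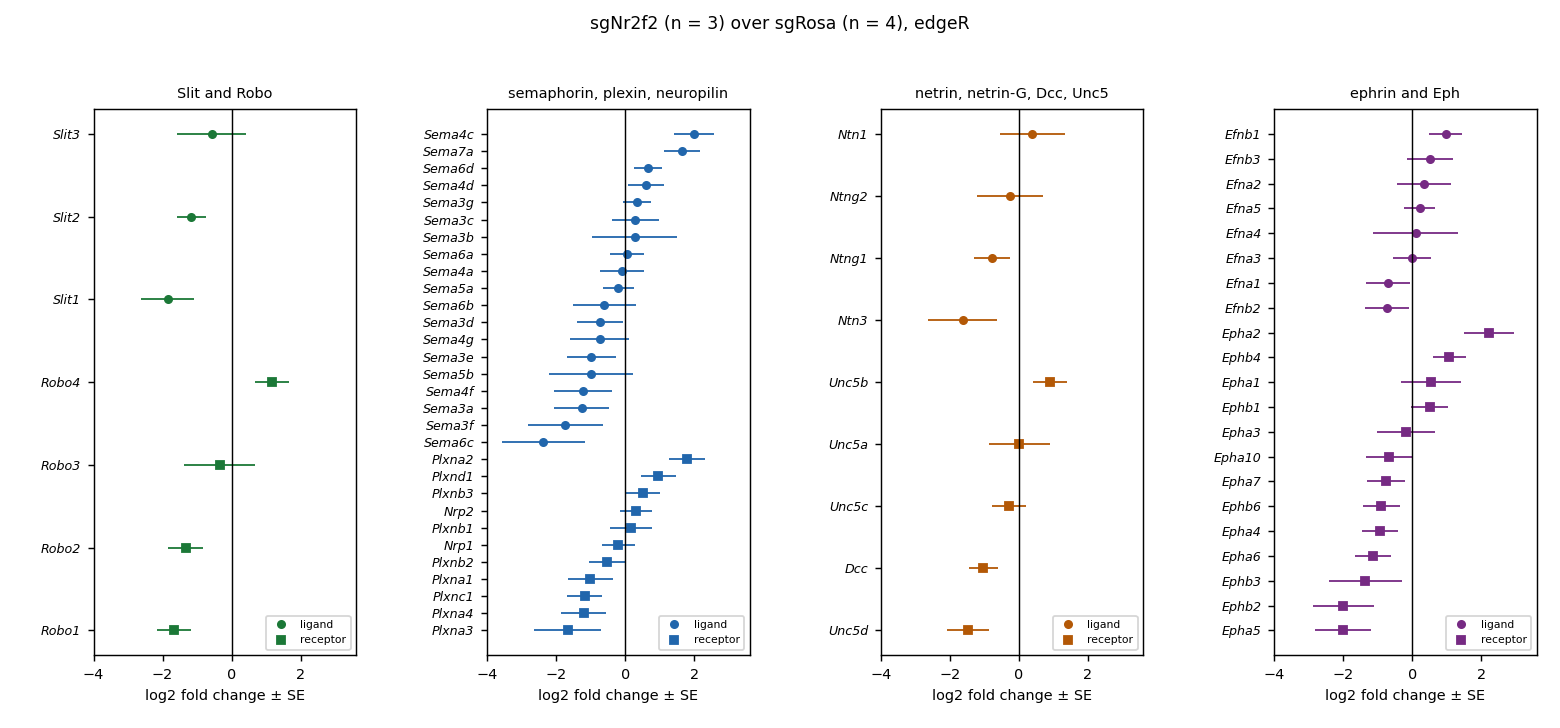
Log2 fold change of sgNr2f2 over sgRosa ± SE for each of the 67 tested members by family, circles for ligands and squares for receptors; values right of 0 are higher in sgNr2f2. The values run from -2.37 for Sema6c (-0.74 without sgRosa replicate 4) to 2.23 for Epha2, and none passed the adjusted test.

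In the netrin system the receptors Dcc and Unc5d lay lower, and the ligands did not separate. Of 9 tested genes 3 lay higher and 6 lower. An unadjusted p under 0.05 was reached by 2 of the lower genes (2.82% of all genes) and 0 of the higher ones (2.18%). After adjustment 0 passed. Dcc, the attractive netrin receptor, lay at 4.06, 3.59 and 2.97 CPM in sgNr2f2 and 7.83, 7.26, 7.96 and 5.86 CPM in sgRosa. The groups did not overlap and each was tight, and sgRosa replicate 4 was the lowest of its group, so the log2 fold change was -1.03 (SE 0.42, edgeR adjusted p = 0.868) and -1.12 without that library. Over 16 alternatives it ran from -1.24 to -0.91.

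Unc5d, a repulsive receptor that binds Flrt proteins as well as netrin, lay at 4.42, 8.24 and 2.78 CPM in sgNr2f2 and 17.9, 5.85, 9.66 and 24.0 CPM in sgRosa. The groups overlapped through sgRosa replicate 2, with a log2 fold change of -1.47 (SE 0.60). Unc5b, which endothelium also carries, lay at 36.0, 14.1 and 26.1 CPM in sgNr2f2 and 13.5, 20.5, 14.6 and 5.86 CPM in sgRosa, a log2 fold change of 0.89 (SE 0.49) with overlapping groups. Unc5c and Unc5a had means of 8.28 and 1.85 CPM in sgNr2f2 and 10.1 and 1.79 CPM in sgRosa.

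Ntn1, the secreted netrin, lay at 6.73 ± 2.37 CPM in sgNr2f2 and 5.10 ± 4.26 CPM in sgRosa, where replicate 4 had 0 counts and replicate 3 the highest value, 10.4 CPM. Ntng1, a membrane-anchored netrin-G that acts at synapses through Lrrc4c, was the most abundant ligand here, at 30.0, 11.3 and 17.3 CPM in sgNr2f2 and 35.3, 25.1, 17.1 and 56.8 CPM in sgRosa. Its groups overlapped, and its log2 fold change was -0.78 (SE 0.52), or -0.40 without sgRosa replicate 4. Ntn3 lay at 1.39, 2.63 and 3.45 CPM in sgNr2f2 and 2.34, 1.14, 2.86 and 25.1 CPM in sgRosa. Replicate 4 of sgRosa set its log2 fold change of -1.63 (SE 1.00), which was 0.24 without that library. Ntng2 stayed at or under 2.04 CPM in every library. Ntn4 and Ntn5 did not pass the filter, with 79 and 12 counts over all libraries, of which 63 of the Ntn4 counts were in sgNr2f2 replicate 1.

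**Figure D4:**
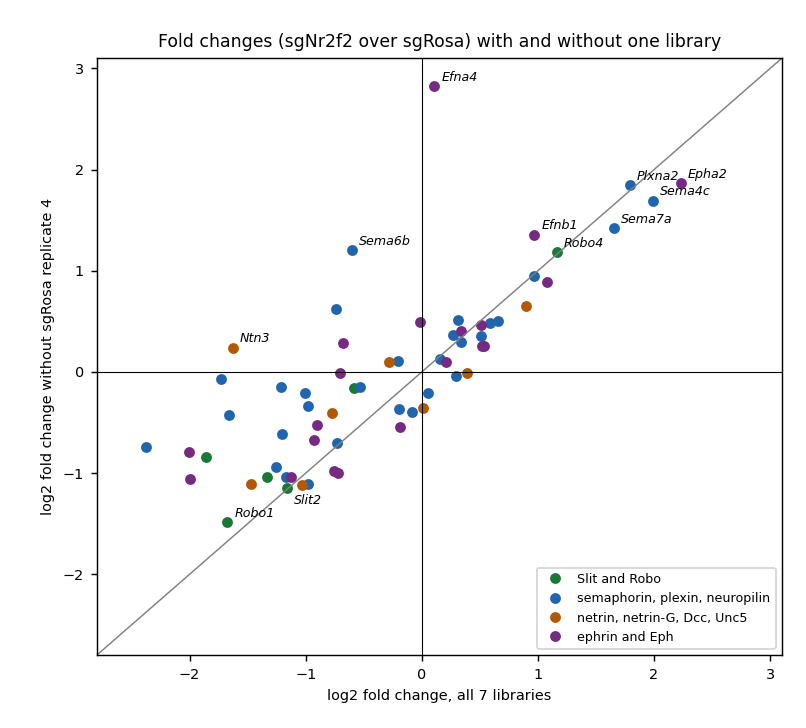
Log2 fold change of sgNr2f2 over sgRosa for the 64 members tested in both fits, with all 7 libraries (x axis) and without sgRosa replicate 4 (y axis), coloured by family; the grey line marks equal values. Robo1, Slit2, Robo4 and Plxna2 lie near the line, while Efna4, Sema6b and Ntn3 lie well above it.

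Among ephrins and Eph receptors, Epha2 and Ephb4 lay higher in sgNr2f2 and the receptors Epha5 and Ephb2 lay lower at an unadjusted p under 0.05. Of all genes 2.18% lay higher and 2.82% lower at this threshold. After adjustment 0 of 21 tested genes passed. Of 8 ephrins 5 lay higher and 3 lower (median log2 fold change 0.16, or -0.08 with library size alone as the scaling). Of 13 tested receptors 4 lay higher and 9 lower (median -0.76), or 5 and 7 of 12 without sgRosa replicate 4.

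Epha2 (chromosome 4, 141301221 to 141329384), a receptor of A ephrins found in epithelium and endothelium, had the highest log2 fold change of all members. It lay at 63.0, 120.3 and 62.1 CPM in sgNr2f2 and 17.7, 14.2, 35.6 and 2.04 CPM in sgRosa. The groups did not overlap, and the log2 fold change was 2.23 (SE 0.72, 95% confidence interval 0.62 to 3.84, edgeR adjusted p = 0.868), or 1.86 without sgRosa replicate 4. In sgRosa its counts ran from 15 in replicate 4 to 524 in replicate 3, and the sgNr2f2 libraries held 1026 to 2146. Epha5, an EphA receptor of neurons, lay at 17.9, 15.6 and 11.3 CPM in sgNr2f2 and 37.6, 10.8, 29.2 and 163 CPM in sgRosa. The groups overlapped through sgRosa replicate 2, and the log2 fold change of -2.01 (SE 0.81) was -0.79 without sgRosa replicate 4. Epha4, Epha6 and Epha7, which neurons also carry, had lower means in sgNr2f2, 32.7, 5.99 and 6.59 CPM, against 62.4, 13.1 and 11.1 CPM in sgRosa. Epha10 lay at 7.95 ± 3.13 CPM in sgNr2f2 and 12.8 ± 12.7 CPM in sgRosa, where replicate 4 had 31.8 CPM. Epha1, Epha3 and Ephb3 had means under 2 CPM in both groups, and Epha8 failed the filter with 68 counts in all.

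Ephb4 and Efnb2, which mark veins and arteries, lay on opposite sides of 0. Ephb4 lay at 16.7, 48.8 and 43.5 CPM in sgNr2f2 and 24.6, 16.8, 17.3 and 10.1 CPM in sgRosa, a log2 fold change of 1.08 (SE 0.47) with overlapping groups. Efnb2 lay at 2.24, 8.46 and 6.30 CPM in sgNr2f2 and 17.4, 7.15, 9.32 and 3.27 CPM in sgRosa, a log2 fold change of -0.72 (SE 0.64), also overlapping. The ratio of Ephb4 to Efnb2 counts within a library was 7.46, 5.76 and 6.90 in sgNr2f2 and 1.41, 2.35, 1.85 and 3.08 in sgRosa. Every sgNr2f2 library had a higher ratio than every sgRosa library. The endothelial markers Cdh5 and Pecam1 averaged 136 and 279 CPM in sgNr2f2 and 66.2 and 169 CPM in sgRosa, with log2 fold changes of 1.04 (SE 0.58) and 0.72 (SE 0.63) that did not pass. Cldn5 had the lower mean in sgNr2f2, 343 CPM against 433 CPM in sgRosa. That sgRosa mean leaned on replicate 4, at 896 CPM, against 176 to 466 CPM in the other sgRosa libraries. For Cdh5 and Pecam1 sgRosa replicate 4 was the lowest of all libraries, at 18.3 and 42.9 CPM. Of the 8 endothelial markers 5 lay higher and 3 lower, and their sums overlapped. The part of endothelial RNA in the ratio was not tested. This pair was chosen after its values were seen, and 15.1% of all member ratios had groups that did not overlap.

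Ephb1 and Efnb3 were high in the libraries rich in oligodendrocyte markers. Efnb3, a B ephrin, had the highest median level per kilobase of exon of all members, 30.2 CPM. It lay at 164, 30.2 and 139 CPM in sgNr2f2 and 45.0, 137, 96.0 and 32.0 CPM in sgRosa. Its receptor partner Ephb1 lay at 108, 36.3 and 110.1 CPM in sgNr2f2 and 26.8, 80.1, 77.1 and 54.5 CPM in sgRosa. For both genes, sgNr2f2 replicates 1 and 3 and sgRosa replicates 2 and 3 were the highest libraries, which are those with oligodendrocyte sums of 315765 CPM or more. The part of oligodendrocyte RNA in this was not tested. Their log2 fold changes were 0.52 (SE 0.67) and 0.51 (SE 0.54), within the spread of each group.

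Efnb1, another B ephrin, lay at 35.9, 80.3 and 51.0 CPM in sgNr2f2 and 28.9, 18.5, 17.8 and 49.1 CPM in sgRosa. The groups overlapped through sgRosa replicate 4, and the log2 fold change was 0.97 (SE 0.48), or 1.36 without that library. Ephb2, a receptor of B ephrins at excitatory synapses, lay at 0.545, 1.79 and 0.484 CPM in sgNr2f2 and 2.72, 1.14, 2.04 and 9.54 CPM in sgRosa, a log2 fold change of -1.999 (SE 0.88) that was -1.05 without sgRosa replicate 4. Among A ephrins, Efna1, Efna3 and Efna5 lay at 15.2 ± 5.42, 11.9 ± 4.75 and 13.4 ± 5.08 CPM in sgNr2f2 and 24.8 ± 21.0, 12.1 ± 7.80 and 11.5 ± 4.45 CPM in sgRosa. Efna2 lay at 4.01 ± 3.34 CPM in sgNr2f2 and 3.18 ± 0.614 CPM in sgRosa, and Ephb6, an Eph receptor without kinase activity, at 4.05 ± 0.203 CPM in sgNr2f2 and 7.60 ± 4.24 CPM in sgRosa. Efna4 depended on 1 library: it lay at 0.727, 2.63 and 1.03 CPM in sgNr2f2 and 0.234, 0.162, 0.204 and 5.18 CPM in sgRosa, and its log2 fold change was 0.10 (SE 1.23) with all libraries and 2.82 without sgRosa replicate 4.

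**Figure D5:**
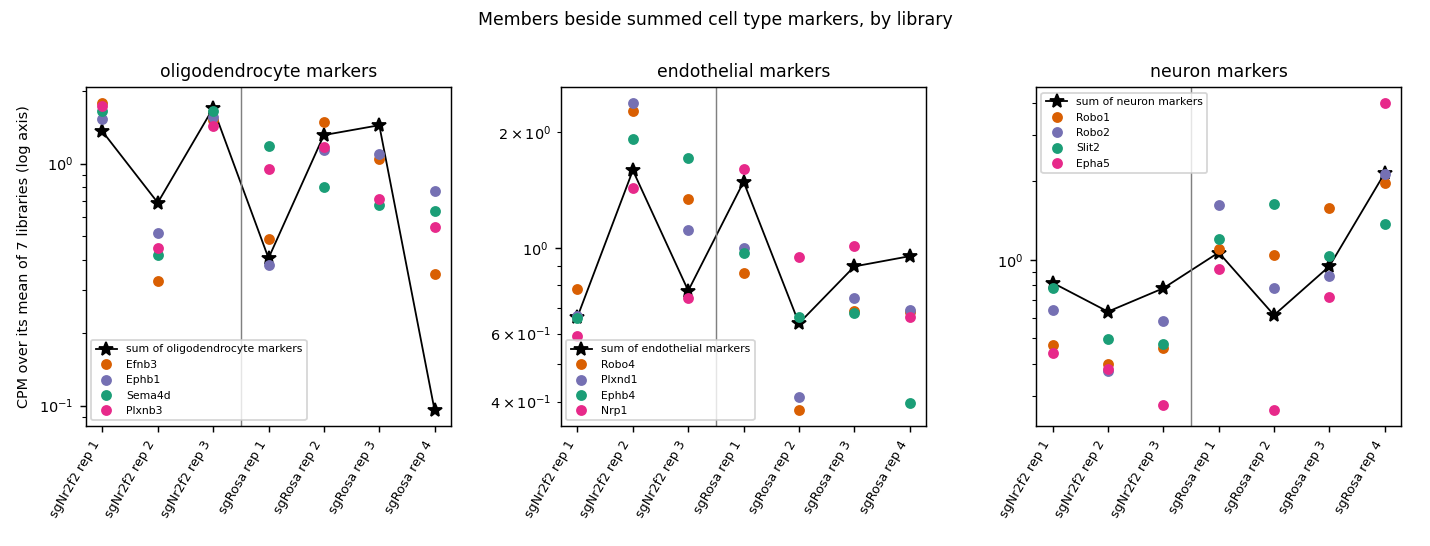
Members (coloured points) beside the summed CPM of a marker list (black stars and line), each divided by its own mean over 7 libraries, on a log axis, with sgNr2f2 libraries left of the grey line. Efnb3 and Ephb1 are low where oligodendrocyte markers are low, in sgNr2f2 replicate 2 and sgRosa replicates 1 and 4; Robo1, Robo2 and Slit2 are below their means in all 3 sgNr2f2 libraries.

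Genes that work with these ligands and receptors were counted from lists of known partners and signalling genes, drawn up with earlier results of these data known. Of 20 tested partners (co-receptors, adhesion molecules and modifiers), 6 lay higher and 14 lower in sgNr2f2. At an unadjusted p under 0.05, 4 partners lay lower (2.82% of all genes) and 0 lay higher (2.18%). The median log2 fold change was -0.53, or -0.06 without sgRosa replicate 4. Flrt3, an adhesion molecule that binds Unc5 receptors and Robo1, lay at 6.84, 3.64 and 6.23 CPM in sgNr2f2 and 18.9, 8.39, 14.7 and 21.4 CPM in sgRosa, and its groups did not overlap (log2 fold change -1.51, SE 0.47, edgeR adjusted p = 0.868). Its binding partner Adgrl3, a latrophilin, lay at 19.99, 23.8 and 21.1 CPM in sgNr2f2 and 51.1, 24.6, 42.3 and 40.5 CPM in sgRosa, again with no overlap (log2 fold change -0.87, SE 0.39). The L1 family adhesion genes Nrcam and Chl1 stood at log2 fold changes of -1.24 (SE 0.51) for Nrcam and -2.09 (SE 0.85) for Chl1, or -0.95 and -0.84 without sgRosa replicate 4.

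Of 51 tested signalling genes downstream of these receptors, 33 lay higher and 18 lower in sgNr2f2, with a median log2 fold change of 0.21. None passed an unadjusted p under 0.05, where 2.18% of all genes lay higher and 2.82% lower. Groups did not overlap for 4 higher genes and 1 lower gene, where 4.41% and 3.9% of all genes were of this kind. The 4 were Mical3, the plexin-binding GTPase gene Rnd1, Dock1, and the kinase gene Abl1 at 28.2 ± 2.32 CPM in sgNr2f2 and 15.8 ± 7.33 CPM in sgRosa. The lower gene was the kinase gene Pak3, at 18.8 ± 1.27 CPM in sgNr2f2 and 30.3 ± 11.4 CPM in sgRosa.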

How the data were processed

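Gene counts from 7 RNA-seq libraries were used (3 sgNr2f2, 4 sgRosa). The values are unnormalised counts per gene symbol as deposited by the authors. One table covers the series, and each of the 7 files per library repeats its column. The submitters' processing notes list STAR 2.7.5c, featureCounts 2.0.1, the build mm10 and fastp 0.23.2, with FastQC 0.11.9 and MultiQC 1.11, and edgeR 3.42.4, with no roles stated. How featureCounts was run (gene models, strandedness, reads that map to several genes) is not given in the sources used here. In GENCODE M21 (mm10), 19 of the 71 members share exon bases with another gene, 5 of them over 10% (Efna3, Efna4, Ntn5, Ntng2 and Plxna1), so their counts are uncertain. Coordinates came from RefSeq GRCm38.p6 and exon lengths from GENCODE M21.

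Counts were tested with edgeR 4.0.16 in R 4.3.3 (TMM factors, filterByExpr with a minimum count of 10, quasi-likelihood F test, group as the only term), adjusted by Benjamini-Hochberg over 14412 genes with a threshold of 0.05. DESeq2 1.42.0, limma 3.58.1 (voom), other scalings, no filter, a replicate block and fits without each library were alternatives. CPM used TMM-scaled library sizes, with mean ± SD over libraries, and the depth of each library limits the precision of low genes. Cell type markers were summed as CPM with no test.

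The members and lists were chosen with earlier results of these data known. Values in every library are given, in each family and apart for ligands and receptors, for the member with the highest mean CPM and the 2 with the smallest p, and for every member whose groups do not overlap. Nrp1, Nrp2, Ephb4, Ephb2, Sema4d, Plxnb3, Efna4, Sema6b and the partner genes were named outside this rule.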

Additional observations from a re-analysis of the deposited data

Results flagged for a closer look

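In the group of 4 sgRosa libraries, 8 of 67 tested members (11.9%) had 1 library whose gap to the nearest other, as a share of the group's range, exceeded Dixon's 95% critical value for 4 samples. Chance gives this in about 1 in 20 groups, and in these libraries 18.6% of all genes tested did. In 7 of the 8 the library was sgRosa replicate 4, which was higher than the rest.

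Sema6b stood at 85.4 CPM there, against 4.01 to 10.3 CPM in the other 3 sgRosa libraries. Epha10 stood at 31.8 CPM, against 5.41 to 8.03 CPM, and Ntn3 at 25.1 CPM, against 1.14 to 2.86 CPM. Sema4g stood at 11.9 CPM, against 1.25 to 1.83 CPM, and Sema6c at 8.86 CPM, against 0.379 to 1.70 CPM. Sema3f stood at 7.36 CPM, against 0.469 to 0.975 CPM, and Efna4 at 5.18 CPM, against 0.162 to 0.234 CPM. The remaining gene was Sema3e, with 13.4 CPM in sgRosa replicate 1, against 5.31 to 5.85 CPM in the others.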

How the results depend on the processing

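Over the 16 alternatives, 496 values of 31 named genes were recomputed, of which 469 kept their direction and their side of the threshold, 5 passed it and 22 turned, and 25 of the 31 genes kept their direction throughout. edgeR called 0 genes and 0 members in each of the fits without 1 library, with each scaling, without a filter and with the block, and limma-voom called 0. DESeq2 called 1 gene higher and 6 lower, and 233 and 124 with sgRosa replicate 4 left out. In that fit 5 members were higher (Efnb1 1.39, Epha2 1.89, Plxna2 1.88, Sema4c 1.73 and Sema7a 1.45 as log2 fold changes), with 10 higher at an unadjusted p under 0.05. Library size alone moved the median log2 fold change of all genes to -0.33 and gave 2 members higher with no overlap and a netrin receptor median of -0.59 and an ephrin ligand median of -0.08.

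In fits without 1 library, members at an unadjusted p under 0.05 ran from 3 to 9 higher and from 3 to 10 lower. The higher count was 3 without sgNr2f2 replicate 2. The lower count was 4 without sgNr2f2 replicate 1, sgNr2f2 replicate 2 or sgRosa replicate 1, 3 without sgNr2f2 replicate 3 and 5 without sgRosa replicate 4. Members with no overlap ran from 4 to 11 higher and from 5 to 12 lower, with fewer libraries to overlap. Of all genes, 9.11% higher and 8.95% lower had no overlap without sgRosa replicate 4, against 4.41% and 3.9% with all libraries. At an unadjusted p under 0.05 in edgeR, the shares without that library were 6.41% higher and 4.88% lower. Shares were not taken for the other fits without 1 library, so their counts cannot be set against all genes. Median log2 fold changes ran from -0.71 to -0.052 for semaphorin receptors (-0.71 without sgNr2f2 replicate 1, -0.66 without sgNr2f2 replicate 2) and from -0.44 to -0.027 for netrin receptors. Limma-voom gave 5 lower at an unadjusted p under 0.05, and 4 with sgRosa replicate 4 left out. DESeq2 without that library gave medians of -0.30 for Robo receptors and 0.14 for netrin ligands.

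The labels do not say that same-numbered libraries are pairs, so the numbers are not taken as pairs. Deviations from the group means correlated at -0.20, -0.26 and 0.09 for numbers 1, 2 and 3. sgRosa replicate 4 pulls the sgRosa means, so these correlations cannot decide whether the libraries are paired. With the replicate block, 4 members lay lower at an unadjusted p under 0.05, and medians were -0.25 for Robo receptors, 0.15 for semaphorin ligands and 0.14 for netrin ligands.

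Log2 fold changes that turned were those of 6 genes. Ntn3 went to 0.24 without sgRosa replicate 4, 0.24 with the replicate block, and without that library 0.27 with DESeq2 and 0.27 with limma-voom. Sema6b went to 1.21, 1.25, 1.23 and 1.25 in these 4 fits and to 0.52 with limma-voom. Sema3c went to -0.04, -0.15, -0.0026 and -0.17 in these 4 fits and to -0.20 without sgNr2f2 replicate 2. Efna4 went to -0.13 with library size alone, -0.63 without sgNr2f2 replicate 2, and -0.28, -0.28 and -0.26 without sgRosa replicates 1, 2 and 3. Nrp1 went to 0.039 without sgNr2f2 replicate 1 and 0.071 without sgRosa replicate 1, and Nrp2 to -0.31 without sgNr2f2 replicate 2. In fits without 1 library the values ran from -0.63 to 2.82 for Efna4, -0.66 to 0.071 for Nrp1, -0.31 to 0.59 for Nrp2, -1.98 to 0.24 for Ntn3, -0.20 to 0.69 for Sema3c and -0.95 to 1.21 for Sema6b. The causes were not tested. Depth limits what can be said of low genes such as Robo3, Slit3, Ephb3, Epha1, Ntng2 and Sema6c, with means over all libraries under 2 CPM.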

Other observations

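Ligand to receptor ratios of counts within a library were set side by side, with pairs picked after values were seen. The count of Sema7a was 15.9, 31.0 and 28.5 times that of its receptor gene Plxnc1 in sgNr2f2 and 3.66, 2.87, 8.73 and 1.27 times in sgRosa. The groups could not overlap here, since each sgNr2f2 library lay higher for Sema7a and lower for Plxnc1. This ratio therefore adds nothing to the values of the 2 genes. The count of Sema4c was 2.696, 6.40 and 6.89 times that of Plxnb2 in sgNr2f2 and 1.94, 0.737, 1.89 and 0.144 times in sgRosa. These groups did not overlap, and neither did those of Sema4c alone. Slit2 to Robo1, both of which lay lower in sgNr2f2, gave 3.18, 2.40 and 2.00 in sgNr2f2 and 2.10, 3.00, 1.27 and 1.34 in sgRosa, and these overlapped. Of all member ratios 15.1% had groups that did not overlap.

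The highest library of a member was sgRosa replicate 4 for 44.8% of the tested members, against 32.7% of all genes, and sgRosa replicate 2 for 1.49%, against 11.1% of all genes. The 1 member highest in sgRosa replicate 2 was Slit2. sgNr2f2 replicate 2 was the highest library for 11 members (16.4%), close to the 15.7% of all genes. These were Efna5, Efnb1, Epha2, Ephb4, Nrp2, Plxna2, Plxnd1, Robo4, Sema3c, Sema4c and Sema7a. sgRosa replicate 1 was the highest for 11 members as well (16.4%, against 14.5% of all genes).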
